A study of Mus musculus with 7 samples.

Results

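MEF regions lost between days 1 and 6 of reprogramming are stretches of the mouse genome with an ATAC-seq peak in mouse embryonic fibroblasts (MEFs) on day 0 and on day 1, and with none on day 6 or day 9 or in embryonic stem cells (ESCs). Touching or overlapping peaks of all 7 libraries were merged into 104346 regions, and 4052 of these met the rule. They make up 15.4% of 26318 regions that were open, meaning covered by a peak, on days 0 and 1. The regions were chosen by the measured peaks themselves, so the absence of later peaks is a definition and not a result, and the peaks of days 0 and 1 are described without a test. Peaks on day 2 and day 3 were left free by the rule, although the choice by later days is tied to them.

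The study followed chromatin opening by ATAC-seq, in which Tn5 transposase cuts open DNA in nuclei, while MEFs were driven towards pluripotency by Oct4 (Pou5f1), Klf4, Sox2 and Myc (OKSM). The MEFs came from a cross of mice carrying Col1a1tm1(tetO-Pou5f1,-Klf4,-Sox2,-Myc)Hoch on B6;129S4, a cassette of the 4 factors behind a tetracycline operator in the Col1a1 locus, with mice carrying Gt(ROSA)26Sortm1(rtTA*M2)Jae on B6.Cg, which supplies the rtTA transactivator. Day 0 MEFs were not treated, and the MEFs of days 1, 2, 3, 6 and 9 had received doxycycline at 2 µg/ml for that number of days. The ESC library came from untreated cells of the line Bruce-4, although its genotype entry repeats that of the MEFs. All MEF libraries, the untreated one included, carry both transgenes, and MEFs are an isolate of mixed connective tissue cells from embryos rather than a clone. Each time-point has 1 library, so no difference between time-points can be set against replicates, and no p-value is given. In such bulk libraries, fewer cells with an open site and a site that is less open in each cell cannot be told apart.

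The deposited lists held between 27074 peaks in ESCs and 61241 on day 0, with median widths of 364 to 394 bp, and gave no score for any peak. The labelled cell types were checked at the transcription start sites (TSSs) of marker genes. A peak lay within 1000 bp of a TSS for 23 of 26 fibroblast transcription factor genes on day 0 and for 11 of 26 in ESCs. For 21 pluripotency genes the numbers were 11 on day 0 and 7 in ESCs, where Pou5f1 and Zfp42 had a peak and Nanog and Sox2 had none. Genes of endothelial cells (5 of 8) and of macrophages and blood (4 of 8) also had TSS peaks on day 0, against 2 and 3 of 8 on day 1. The part of these cells in the lost regions was not tested, and 3 lost regions were assigned to genes of each of these lists.

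Fibroblast identity is held by enhancers, stretches of open DNA away from TSSs at which transcription factors bind together. AP-1, a dimer of Fos and Jun family proteins, is among the main factors at fibroblast enhancers, often beside TEAD, RUNX and C/EBP proteins. During reprogramming the somatic enhancers close while those of pluripotent cells open, and AP-1 is known as a guardian of the somatic state.

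The sequences of 6 lost regions near genes of the fibroblast programme are shown as examples. Each is 300 bases of the plus strand of the mm10 reference around the middle of the stretch that the day 0 and day 1 peaks shared. Capitals mark AP-1 matches (TGANTCA) and C/EBP matches (TTGCNNAA). The regions were taken by the length of the shared stretch among genes of the lists used here, up to 2 for each pattern of day 2 and day 3 peaks. The regions taken this way at Fgfr2 and Zeb1 are given by their values alone, and neither motif matched in the 300 bp around their middle.
The Runx1 sequence, 360.3 kb upstream of that transcription factor gene, holds 1 AP-1 match near its middle.
Runx1, chr16:93186593-93186892: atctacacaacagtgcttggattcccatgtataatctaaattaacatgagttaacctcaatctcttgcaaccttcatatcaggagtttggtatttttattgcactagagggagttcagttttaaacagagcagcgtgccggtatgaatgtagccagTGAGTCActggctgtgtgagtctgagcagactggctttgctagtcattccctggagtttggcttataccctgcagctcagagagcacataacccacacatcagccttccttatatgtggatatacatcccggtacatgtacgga
The Cebpb sequence lies 71.0 kb downstream of the nearest TSS of the C/EBP-beta gene and holds 1 C/EBP match and no AP-1 match.
Cebpb, chr2:167759984-167760283: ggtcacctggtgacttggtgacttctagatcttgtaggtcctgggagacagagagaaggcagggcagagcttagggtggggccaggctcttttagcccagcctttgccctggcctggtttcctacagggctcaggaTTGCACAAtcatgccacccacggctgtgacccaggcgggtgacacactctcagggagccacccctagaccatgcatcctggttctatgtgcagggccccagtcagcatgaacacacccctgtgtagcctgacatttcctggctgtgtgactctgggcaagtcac
The Ltbp1 sequence, in an intron of the gene for a protein that binds latent TGF-beta in the matrix, holds 1 AP-1 match.
Ltbp1, chr17:75199722-75200021: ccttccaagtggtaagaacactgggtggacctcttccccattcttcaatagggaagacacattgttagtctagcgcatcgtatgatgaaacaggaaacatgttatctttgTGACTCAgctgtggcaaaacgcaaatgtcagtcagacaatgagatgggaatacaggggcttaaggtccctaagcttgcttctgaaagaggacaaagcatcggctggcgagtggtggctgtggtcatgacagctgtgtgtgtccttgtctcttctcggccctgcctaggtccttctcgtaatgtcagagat
The Igf1 sequence, in an intron of the insulin-like growth factor 1 gene, holds 1 match of each kind.
Igf1, chr10:87879995-87880294: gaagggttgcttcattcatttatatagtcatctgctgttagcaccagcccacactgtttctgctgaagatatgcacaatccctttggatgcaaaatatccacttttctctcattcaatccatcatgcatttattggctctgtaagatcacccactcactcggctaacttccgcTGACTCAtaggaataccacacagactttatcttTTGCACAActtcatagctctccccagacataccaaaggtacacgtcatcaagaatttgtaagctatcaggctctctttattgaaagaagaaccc
The Col6a3 sequence, in an intron of a collagen VI chain gene, holds 2 AP-1 matches.
Col6a3, chr1:90834803-90835102: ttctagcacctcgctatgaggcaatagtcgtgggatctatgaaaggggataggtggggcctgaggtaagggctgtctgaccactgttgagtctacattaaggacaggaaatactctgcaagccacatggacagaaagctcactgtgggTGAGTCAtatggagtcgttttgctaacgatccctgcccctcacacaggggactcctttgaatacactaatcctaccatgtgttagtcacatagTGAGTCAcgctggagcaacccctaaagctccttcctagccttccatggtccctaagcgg
The Foxf1 sequence lies upstream of a TSS of a mesenchymal forkhead factor gene, with 74.0% G and C and neither match.
Foxf1, chr8:121083620-121083919: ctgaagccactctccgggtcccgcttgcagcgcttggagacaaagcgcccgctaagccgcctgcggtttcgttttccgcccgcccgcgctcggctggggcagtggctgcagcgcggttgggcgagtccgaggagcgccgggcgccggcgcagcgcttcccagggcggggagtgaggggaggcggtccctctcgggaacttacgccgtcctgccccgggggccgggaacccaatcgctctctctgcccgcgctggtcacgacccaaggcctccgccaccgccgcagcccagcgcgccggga

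The regions differed in how long their peaks lasted. At Runx1 the peaks of days 0 and 1 covered 591 and 608 bp, and none was called on day 2 or day 3. The intronic region of Fgfr2, a fibroblast growth factor receptor gene, had 886 bp on day 0, in 2 peaks of 655 and 231 bp, and 881 bp on day 1, and then none. The Cebpb region had 449, 460 and 404 bp on days 0, 1 and 2 and none on day 3. The Ltbp1 region had 357, 300 and 200 bp on the same days and none on day 3. The last value is the smallest peak width in the lists. At Foxf1 the widths on days 0, 1 and 3 were 562, 524 and 278 bp, with no peak on day 2. The Igf1 region had 788, 584, 212 and 566 bp on days 0 to 3. The Col6a3 region had 590, 598, 500 and 516 bp. The rule requires that none of them had a later peak.

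Most of the lost regions had no called peak by day 2, and many showed a peak again on day 3. On day 2, 806 of 4052 (19.9%, exact 95% interval 18.7 to 21.2) had a peak, against 71.3% of all regions open on days 0 and 1. The day 2 share was 33.7% with the day 6 library left out and 32.0% when only the 27074 widest peaks of a library were used. On day 3, 1692 (41.8%, 40.2 to 43.3) had a peak, against 84.4% of that background. Of the background 42.0% lay within 1000 bp of a TSS, against 6.71% of the lost regions. Its shares away from TSSs were not computed, so these contrasts are a description. Intervals throughout are exact (Clopper-Pearson) and cover counting error only. A peak on neither day was found in 2109 regions (52.0%), on day 2 alone in 251 (6.19%), on day 3 alone in 1137 (28.1%) and on both in 555 (13.7%). Day 3 peaks without a day 2 peak thus outnumbered day 2 peaks without a day 3 peak. The whole lists move in the same direction, with 33174 peaks on day 2 and 48087 on day 3. With the 27074 widest peaks of each library, 32.0% of the lost regions of that setting had a day 2 peak and 36.8% a day 3 peak. These 2 shares are closer to each other than those from the whole lists. The part of list size in this order was not tested further.

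The same 4 patterns separate the regions open on days 0 and 1 by their later state. Of 3293 regions with a peak on neither day 2 nor day 3, 64.0% (62.4 to 65.7) had no later peak and so were among the lost regions. The share was 31.1% (27.9 to 34.4) of 807 regions with a day 2 peak alone, 26.7% (25.3 to 28.0) of 4265 with a day 3 peak alone and 3.09% (2.84 to 3.36) of 17953 with both. The intervals for day 2 alone and day 3 alone overlap narrowly. All 4 shares include regions at TSSs. Absence on both days did not decide the later state, since the remaining regions of the first pattern had a peak on day 6, day 9 or in ESCs.

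**Figure D1:**
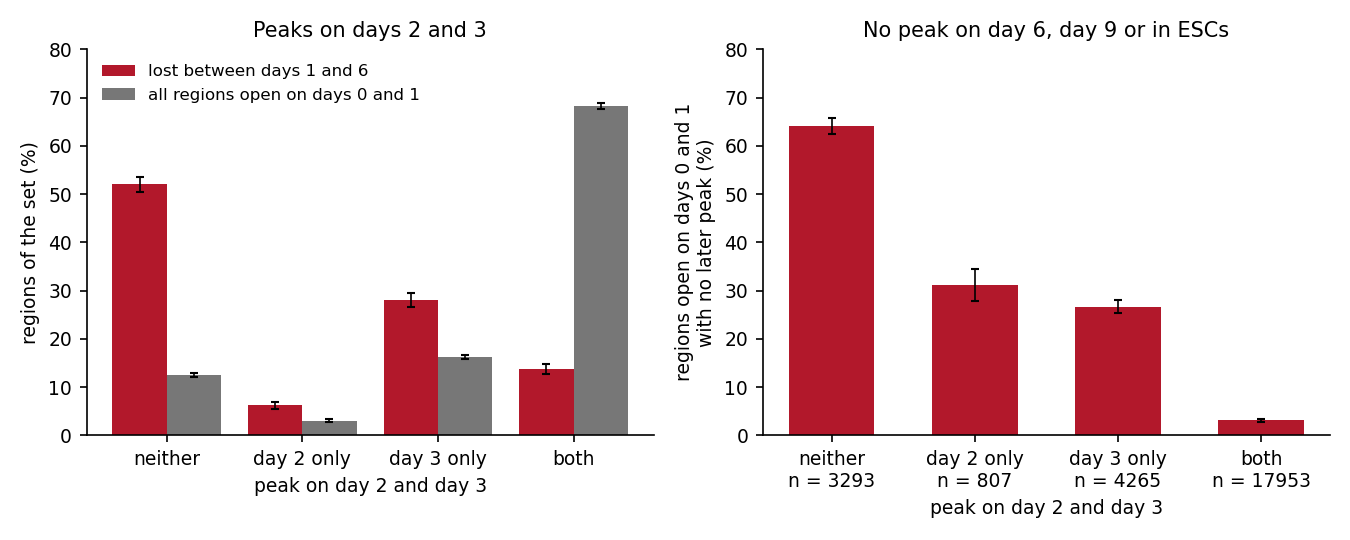
Left, share (%) of the 4052 lost regions and of all 26318 regions open on days 0 and 1 with a peak on neither, either or both of days 2 and 3. Right, share (%) of the regions of each pattern that had no peak on day 6, day 9 or in ESCs, falling from 64.0% to 3.09%. Error bars are exact 95% intervals.

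The rule has a sharp edge, and many regions lie just beyond it. Of the regions open on days 0 and 1, 3364 were left out by a day 6 peak alone, with a median of 305 bp of peak, 584 by a day 9 peak alone (228.5 bp) and 226 by an ESC peak alone (278 bp). A further 7338 had peaks in 2 of these 3 libraries and 10754 in all 3. Just inside the edge, 298 lost regions (7.35%) had a peak of day 6, day 9 or ESCs within 500 bp, the nearest of them 2 bp away. The median distance to the nearest day 6 peak was 13.4 kb. A day 6 peak lay within 10 kb of 40.5% of the lost regions, against 38.7% of the 24930 regions lost by day 1, which had a day 0 peak and none in the other 6 libraries.

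The peaks of the lost regions were narrower on day 1 than on day 0 in most cases. These widths come from the contrast that chose the regions and are given as a description, summed where a region held more than 1 peak (199 lost regions on day 0 and 182 on day 1). The lost regions had a median of 477 bp of peak on day 0 (quartiles 253 and 575) and 258.5 bp on day 1 (202 and 407). Where a peak was present, the medians were 249 bp on day 2 (806 regions) and 282.5 bp on day 3 (1692 regions). In the 5212 regions with a peak in each of the 6 MEF libraries and none in ESCs, called kept through day 9 here, the medians were 572, 542.5, 466 and 563 bp on days 0, 1, 2 and 3. On day 1 the peak was narrower than on day 0 in 2955 lost regions (72.9%) and wider in 969, with a median ratio of 0.758. In the kept regions it was narrower in 57.1%, with a median ratio of 0.954. At 24.2% of the lost regions the day 1 peak had the smallest listed width of 200 bp, against 2.63% of the kept ones.

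Regions whose peaks lasted longer had wider peaks on day 1. The day 1 median was 230 bp where neither day 2 nor day 3 had a peak, 286 bp with day 2 alone, 292 bp with day 3 alone and 435 bp with both. On day 0 the same 4 groups had medians of 437, 477, 502 and 515 bp, closer to each other than on day 1. Within the 555 regions with both, the day 3 peak was wider than the day 2 peak in 348 and narrower in 185.

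**Figure D2:**
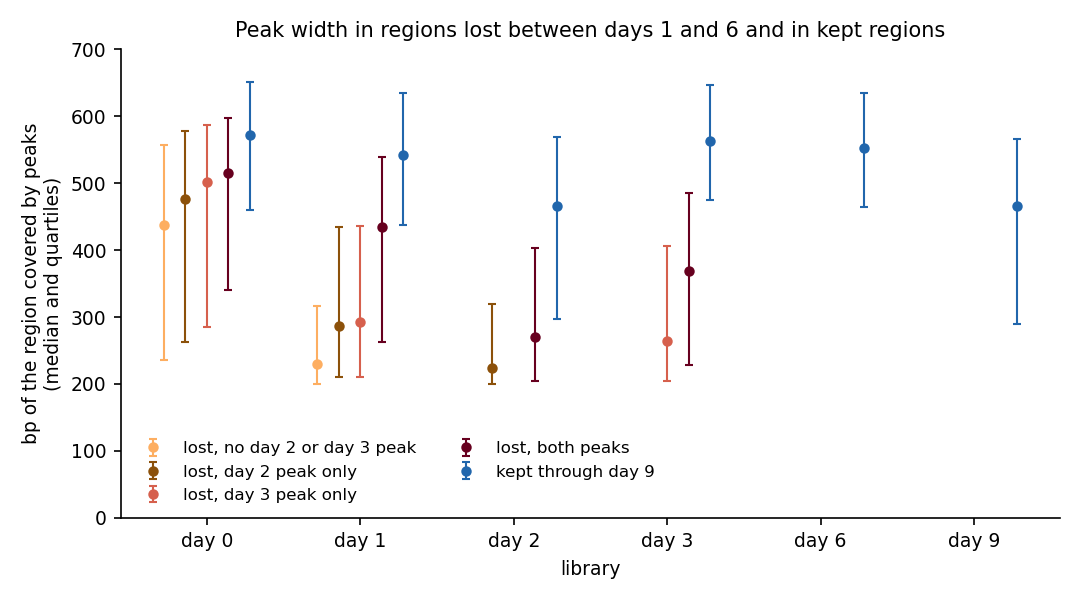
Base pairs of each region covered by peaks in each MEF library, as medians with quartiles, for the lost regions by their pattern of day 2 and day 3 peaks and for the 5212 regions kept through day 9. The kept regions stay at medians of 466 bp or more, while the day 1 medians of the lost regions run from 230 to 435 bp.

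Width before induction moved with the outcome. Among regions open on days 0 and 1, the lost share was 33.7% (32.0 to 35.5) of 2939 regions with up to 250 bp of day 0 peak, 28.9% of 2143 with up to 400 bp, 19.7% of 8879 with up to 600 bp, 7.61% of 8332 with up to 800 bp and 1.52% (1.16 to 1.94) of 4025 with more. These shares include regions within 1000 bp of a TSS, 42.0% of all regions open on days 0 and 1. The lost share away from TSSs was 44.8% up to 400 bp, 36.1% up to 600 bp and 20.4% above with an AP-1 match. For regions without a match it was 30.8, 17.1 and 10.2%. The part of regions at TSSs in this order was not tested. The lists carry no read counts, so the part that a peak's strength and the calling threshold play was not tested either. The day 0 and day 1 peaks of 4011 lost regions overlapped, and the stretch they shared had a median of 206 bp over all 4052. In 41 they lay in the same merged region without overlapping, and in 1666 (41.1%) the day 1 peak lay wholly inside the day 0 peak.

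The longest shared stretches show that wide peaks were lost too. The longest, 786 bp, lies in an intron of Hecw2, 52.8 kb upstream of Stk17b, a kinase gene, at chr1:53838024-53838952. Its peaks measured 892, 823, 275 and 200 bp on days 0, 1, 2 and 3, shorter at each time-point. A region nearest to Snx18, a sorting nexin gene, at chr13:113550781-113551620 measured 833, 705, 519 and 501 bp. The region 11.2 kb upstream of Thap7 at chr16:17542380-17543195 fell in the same order, with 816, 693, 368 and 256 bp. The region in Mcf2l, a gene for a guanine nucleotide exchange factor, at chr8:12996532-12997465 went from 804, 658 and 467 bp to 761 bp on day 3. The region nearest to Pja1, a ubiquitin ligase gene, at chrX:99530954-99531696 had 743, 646, 506 and 615 bp, and the region of the synaptic scaffold gene Dlg2 at chr7:91432365-91433097 had 665, 720, 201 and 448 bp. Of the 8 regions with the longest stretches, 6 had peaks on both day 2 and day 3. The region at Sema6d, a semaphorin gene, had one on day 3 alone (691, 640 and 329 bp on days 0, 1 and 3). The region at Kcnmb3, a potassium channel subunit gene, had 701 and 668 bp on days 0 and 1 and no later peak.

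The lost regions lay mostly away from TSSs. Within 1000 bp of the TSS of a protein-coding gene were 272 of 4052 (6.71%, 5.96 to 7.53), against 16.1% of all merged regions and 42.0% of all regions open on days 0 and 1. The regions lost by day 1 had 5.14% and the kept regions 20.0% (18.9 to 21.1). Introns held 49.2% of the lost regions, exons 4.76% and intergenic DNA 39.3%. The median distance to a TSS was 30.1 kb in the lost regions, 32.5 kb in those lost by day 1, 19.6 kb in the kept ones and 23.0 kb over all merged regions. With the TSSs of all annotated transcripts, non-coding ones included, 12.6% of the lost regions lay within 1000 bp of one. This share was not computed for the other sets. Regions open on days 0 and 1 that lay farther than 1000 bp from a TSS were lost in 24.8% of 15258 cases.

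The DNA of the lost regions was poorer in G and C than that of the kept ones. The median G and C content of the 300 bp around the middle was 46.7% in the lost regions, 45.7% in those lost by day 1, 50.7% in the kept ones and 48.3% over all merged regions. Repeats masked in the reference covered a mean of 11.7% of these windows, against 17.1% over all regions and 14.7% in those lost by day 1. The mean was lower in the kept regions (9.21%) and over all regions open on days 0 and 1 (8.38%). Away from TSSs it was 11.9% in the lost regions, 9.86% in the kept ones and 10.5% over all regions open on days 0 and 1. The lost regions were spread over the genome. Chromosome 13 had 232 (19.5% of its regions open on days 0 and 1) and chromosome X 60 (10.9%), the ends of the range among chromosomes with such regions. Another lost region lay within 50 kb of 26.1% of them, and the densest group, 4 regions in chr4:45941614-45966298, was nearest to Tdrd7. The spacing of other sets of regions was not computed, so these values give no measure of clustering.

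Among the 11 motifs searched, AP-1 had the largest difference in share between the lost regions and all merged regions. Motifs were read on both strands of the 300 bp around the middle of each region, and a match describes letters and not binding. AP-1 (TGANTCA) matched 2034 of 4049 lost regions with sequence (50.2%, 48.7 to 51.8), against 22.3% of all merged regions. Farther than 1000 bp from a TSS the share was 52.1% (50.5 to 53.7) of 3777, against 34.1% (33.5 to 34.7) of regions lost by day 1, 38.1% (36.6 to 39.6) of kept regions and 25.2% of all regions. Over all regions open on days 0 and 1, from which the lost ones were taken, it was 39.5% (38.7 to 40.3) at this distance. The form TGACTCA was found in 43.7% of these lost regions and TGAATCA in 14.4%, against 19.5% and 7.37% of all regions.

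The motifs of the other fibroblast factors stood closer to their background. TEAD (CATTCC) matched 23.9% of the lost regions and 21.3% of all, and C/EBP (TTGCNNAA) 16.4% and 13.7%. RUNX (TGTGGTTT) matched 4.99% (4.34 to 5.71) of the lost regions and 3.31% of all, and the NFI site TTGGCA 20.9% and 17.8%. The CArG box of serum response factor matched 1.85% (1.46 to 2.32) and 1.69%, an interval that holds the background. Away from TSSs, NFI matched 21.5% (20.2 to 22.9) of the lost regions and 24.9% (23.6 to 26.3) of the kept ones. Over all regions open on days 0 and 1 away from TSSs the NFI share was 21.4%. In the same order the shares were 24.7%, 26.2% and 25.1% for TEAD. They were 17.0%, 15.9% and 15.0% for C/EBP and 5.27%, 4.97% and 4.52% for RUNX. AP-1 and TEAD occurred together in 12.7% of the lost regions away from TSSs, against 6.05% of all regions, 7.80% of those lost by day 1 and 9.99% of the kept ones. TEAD matched 24.3% of those with an AP-1 match and 25.1% of those without.

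Other motifs were rarer in the lost regions than in all regions. The CTCF core AGGNGGC matched 17.0% against 23.7%, KLF (GGGNGTGG) 11.2% against 14.6%, ETS (CCGGAAG) 1.41% against 4.46%, SOX (ACAATGG) 4.20% against 5.21% and the octamer (ATGCNAAT) 4.12% against 5.92%. Away from TSSs the ETS shares were 1.27% and 2.83%. The SOX, octamer and KLF letters are those the reprogramming factors Sox2, Oct4 and Klf4 recognise. For SOX the shares away from TSSs were 4.32% (3.69 to 5.01, lost), 3.41% (lost by day 1) and 4.78% (kept). For the octamer they were 4.24% (3.62 to 4.93), 3.22% and 5.93%. Over all regions open on days 0 and 1 away from TSSs the SOX and octamer shares were 4.35% and 4.54%. Away from TSSs, CTCF letters were in 15.7% (14.6 to 16.9) of the lost regions and 14.7% of those lost by day 1, against 22.8% (21.5 to 24.1) of the kept ones. For KLF the shares were 10.4%, 7.62% and 15.9%. The G and C content, which was higher in the kept regions, moves with both of these GC-rich motifs, and its part was not tested.

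**Figure D3:**
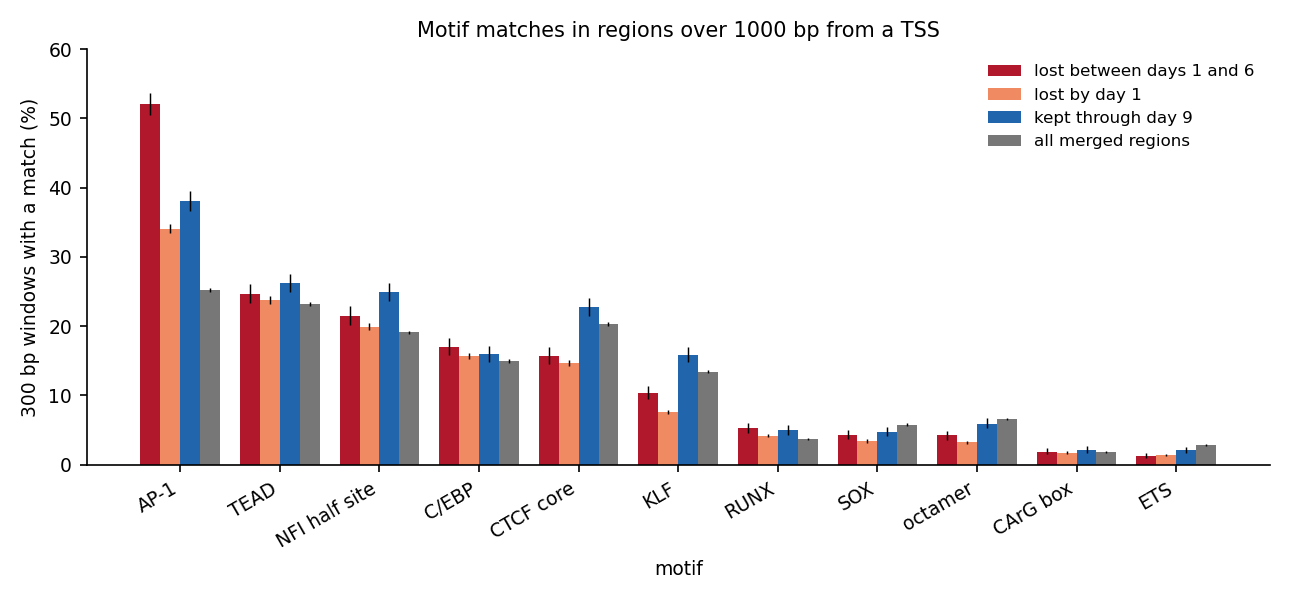
Share (%) of 300 bp windows with a match to each of 11 motifs, in regions farther than 1000 bp from a TSS, for 3777 lost regions, regions lost by day 1, regions kept through day 9 and all merged regions. Bars start at 0 and lines are exact 95% intervals, and AP-1 stands at 52.1% in the lost regions against 25.2% over all regions.

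AP-1 matches gathered at the middle of the lost regions. Away from TSSs there were 345 matches per 1000 regions per 100 bp within 50 bp of the middle, 210.5 from 50 to 100 bp and 38.8 from 400 to 500 bp. In the kept regions the values were 219.9, 155 and 34.7. In regions lost by day 1 the matches were spread, with 138 within 50 bp, 149 from 100 to 150 bp and 143 from 150 to 200 bp.

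The place of the AP-1 match went with the width of the day 0 peak in both lost groups. Lost regions with over 400 and up to 600 bp of day 0 peak had 484 matches per 1000 regions per 100 bp within 50 bp of the middle and 56.4 from 150 to 200 bp. Those with up to 250 bp had 153 and 147. In regions lost by day 1 of up to 250 bp the values were 49.3 and 189, so that matches were denser 150 to 200 bp away than at the middle. Kept regions of up to 250 bp had 148 and 56.4. A window of 300 bp reaches 150 bp to either side and leaves out part of these matches, and a window of 500 bp was added after the data were seen. The part that the peak caller's shift, whose sign is not given in the sources used here, has in these positions and in the shares of narrow peaks was not tested. With the wider window, AP-1 matched 61.0% (59.5 to 62.6) of the lost regions away from TSSs, 49.3% (48.6 to 49.9) of those lost by day 1, 45.2% (43.7 to 46.7) of the kept ones and 34.5% of all regions.

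**Figure D4:**
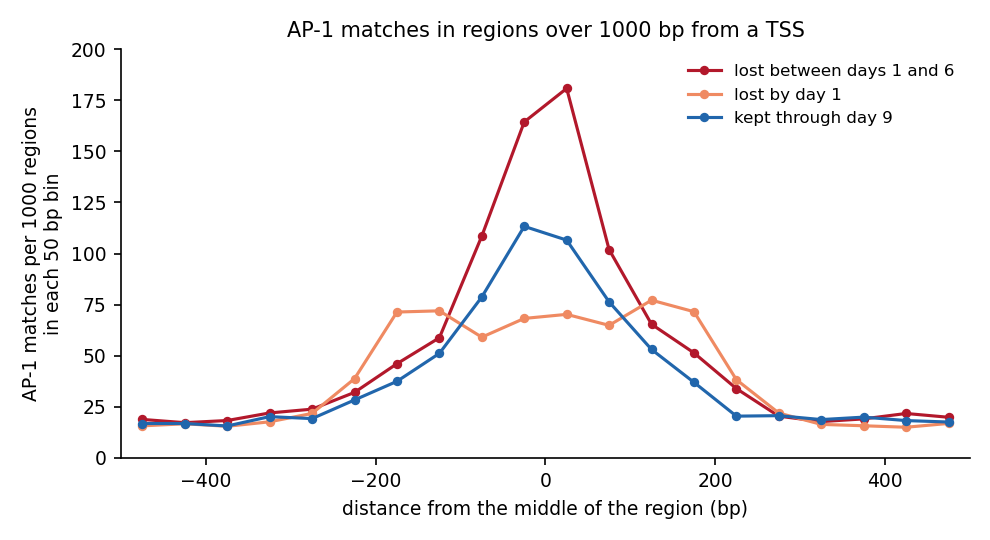
AP-1 matches per 1000 regions in each 50 bp bin by distance from the middle of the region (bp), for regions farther than 1000 bp from a TSS. The lost regions reach 181 at the middle and about the same level as the other groups beyond 300 bp, while the regions lost by day 1 have a broad plateau up to 77.2 within 200 bp of the middle.

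Held to like widths on day 0, lost regions had more AP-1 matches than kept ones in the classes from over 250 to 800 bp, with intervals that did not overlap. In the 300 bp window the shares for day 0 peaks over 400 and up to 600 bp were 61.3% (58.9 to 63.7) of lost regions, 49.1% (47.7 to 50.4) of those lost by day 1 and 36.0% (33.8 to 38.3) of kept ones. For day 0 peaks of up to 250 bp they were 35.0% (31.9 to 38.2), 27.1% and 28.8% (24.8 to 33.1), and the first and last intervals overlap. In the 500 bp window this narrow class had 50.0% (46.7 to 53.3), 47.1% (46.2 to 48.0) and 35.5% (31.2 to 40.0). There the intervals of the lost regions and those lost by day 1 overlap. Over 800 bp the 58 lost regions had 39.7% (27.0 to 53.4) in the 300 bp window, an interval that holds the 32.1% of the kept ones.

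Read the other way, of regions open on days 0 and 1 away from TSSs, 32.7% (31.5 to 33.9) of 6018 with an AP-1 match were lost, against 19.6% (18.8 to 20.5) of 9212 without. The order held within each class of day 0 width, with 44.8% against 30.8% up to 400 bp, 36.1% against 17.1% over 400 and up to 600 bp and 20.4% against 10.2% above. Over all widths, lost regions that still had peaks on day 2 and day 3 had more matches than those with neither. AP-1 matched 47.9% (45.6 to 50.1) with a peak on neither day, 51.3% (44.6 to 58.1) with day 2 alone, 56.7% (53.6 to 59.7) with day 3 alone and 59.5% (55.1 to 63.7) with both. In regions with over 400 and up to 600 bp of day 0 peak, the 4 shares were 58.2, 64.4, 65.1 and 62.6%, and in regions above 600 bp 62.7, 52.9, 59.3 and 64.0%, so the order was not kept in wide regions. In regions of up to 400 bp it was kept, with 33.8% (30.7 to 37.0), 36.0, 42.4 and 50.7% (42.4 to 58.9). Lost regions with an AP-1 match had a median of 520 bp of peak on day 0 and those without 397 bp. On day 3, 46.2% of the first and 37.1% of the second had a peak.

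Each lost region was assigned to the protein-coding gene with the nearest TSS within 1000 kb, a matter of distance and not of regulation. In all, 4030 regions went to 3046 genes and 22 to none. Most of these genes, 2331, had 1 lost region, 715 had 2 or more and 18 had 5 or more. Rbms3, an RNA-binding protein gene, and Foxp1, a forkhead repressor gene, had 7 each. Zeb1, which encodes a repressor that drives the mesenchymal state, and Ubash3b, a phosphatase gene, had 6 each. The genes with 5 were Eya4, Moxd1, Slc8a1, Rnf144a, Met, Pappa2, Xylt1, Dusp10, Gdf6, Foxo1, Thbs1, Zfp608, Myc and Pde4d. Of the 28 genes with 4, Adamts16 and Chst11 completed the 20 named genes, since ties were broken by the share of a gene's open regions that were lost and then by name.

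Long genes and gene-poor surroundings collect more regions, so each count is read against regions open on days 0 and 1 at the same gene. Over all genes 24.8% of those away from TSSs and 15.4% of all those open on days 0 and 1 were lost. All 5 such regions of Eya4 (a coactivator with phosphatase activity), all 5 of Moxd1 (a monooxygenase) and all 5 of Slc8a1 (a sodium and calcium exchanger) were lost, and all 4 of Adamts16 (a matrix protease). Zeb1 lost 6 of 7, Rnf144a 5 of 6, Chst11 (a chondroitin sulfotransferase) 4 of 5, and Met, Pappa2 and Xylt1 5 of 7 each. Myc lost 5 of 18 (27.8%) and Pde4d, a phosphodiesterase gene, 5 of 19 (26.3%). The 20 genes were taken for their high numbers, with ties broken by these shares, so these shares describe them and support nothing further.

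At Zeb1 the 6 lost regions run from 9.72 kb to 241 kb downstream of the nearest TSS, 3 of them in its introns. The one 147 kb downstream, in the gene, had 566, 553 and 558 bp of peak on days 0, 1 and 3 and none on day 2, and the day 3 value is the sum of 2 separate peaks of 262 and 296 bp. The one 25.8 kb downstream had 412, 354 and 342 bp on the same days. The other 4 had no peak after day 1, and at 3 of these the day 1 peak measured 200, 202 and 207 bp against 526, 442 and 612 bp on day 0. The fourth, 9.72 kb downstream, went the other way, from 370 to 546 bp. None of the 7 regions at Zeb1 was in the kept group. At Rbms3, 3 of 7 lost regions had peaks on both day 2 and day 3, and 1 lay 40 bp from a TSS. At Foxp1 none of 7 did, and the 4 without a peak on either day all had day 1 peaks of 200 or 210 bp.

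At Eya4, 2 of the 5 lost regions were wider on day 1 than on day 0, one with 524 and 795 bp and one with 210 and 400 bp, and neither had a later peak. Another region, in an intron 3.11 kb downstream of the nearest of the gene's TSSs, had 566, 504, 507 and 565 bp on days 0 to 3. At Moxd1, 3 of 5 were wider on day 1, the widest going from 200 bp to 724 bp before 419 and 218 bp on days 2 and 3. The remaining 3 at Eya4 and 2 at Moxd1 were narrower on day 1 than on day 0. The 5 lost regions nearest to Myc, another gene of the cassette, lay 531 kb upstream to 405 kb downstream, and each held an AP-1 match. The farthest downstream had 551, 631 and 200 bp on days 0, 1 and 2, and the farthest upstream 576, 200 and 442 bp on days 0, 1 and 3. At Gdf6, a gene of a bone morphogenetic protein family ligand, the 5 lay 228 to 513 kb downstream, and the farthest had 613, 571 and 457 bp on days 0, 1 and 3.

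Met, the receptor of hepatocyte growth factor, had 5 lost regions, 4 of them in its introns. The one at chr6:17521922-17522632 had 627, 434, 468 and 540 bp on days 0 to 3, and the one at chr6:17554644-17555301 had 658, 472 and 232 bp on days 0, 1 and 3. The other 3 had day 1 peaks of the smallest width, 200 bp, and none later. At Thbs1, which encodes the matrix protein thrombospondin 1, the 5 lost regions lay 20.1 to 380.2 kb upstream. The nearest, at chr2:118090994-118091744, had 576, 533, 284 and 568 bp on days 0 to 3. The one at chr2:117999586-118000086 had 501, 372, 396 and 200 bp. Within the stretch drawn here the peaks around Thbs1 numbered 29 in the day 0 library, 18 in that of day 1 and 2 in that of ESCs. Those around Met numbered 12, 8 and 1. The whole lists of these 3 libraries held 61241, 45709 and 27074 peaks. Both genes were among those taken for their many lost regions, so a fall there was built in.

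**Figure D5:**
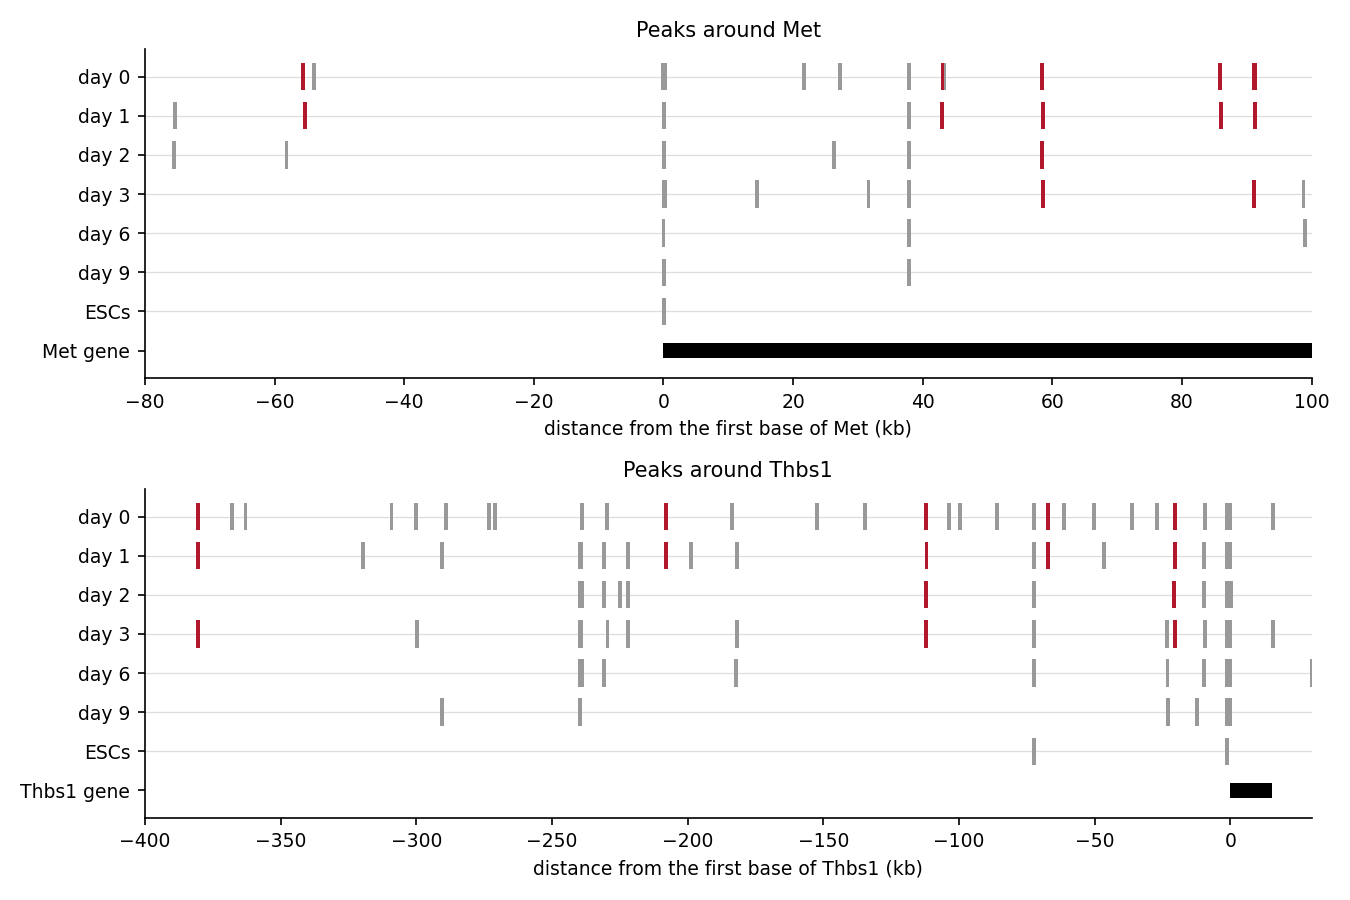
Peaks of each library around Met and Thbs1 by distance from the first base of the gene (kb), with lost regions assigned to the gene in red, other peaks in grey and the gene as a black bar. Narrow peaks are drawn wider than to scale so that they can be seen, with red over grey where they meet. Red marks are present on days 0 and 1, are fewer on days 2 and 3 and are absent later. Peaks at the start of Met are present in all 7 libraries. Those at the start of Thbs1 are present in each MEF library but not in ESCs, where the nearest peak ends 0.938 kb upstream.

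Of 233 genes in 15 lists, 82 had a lost region, and 154 lost regions (3.80%, 3.23 to 4.44) went to a listed gene, against 2.81% of all merged regions. The same share of regions open on days 0 and 1 away from TSSs was not computed. This contrast is thus no measure of an excess at listed genes. The lists were drawn up with earlier results of these data known, and no test of a list was made. Extracellular matrix genes had the most, with 36 regions at 17 of 25 genes, or 0.888% (0.623 to 1.23) of the lost regions against 0.392% of all regions. Away from TSSs, 34 of 91 regions of these genes open on days 0 and 1 were lost (37.4%, 27.4 to 48.1), against 24.8% over all genes. Thbs1 had 5, Fn1 (fibronectin) 4, and the collagen genes Col3a1, Col5a1 and Col5a2 and the tenascin gene Tnc 3 each. Col1a1 and Col1a2, the main fibrillar collagen genes, had none although 3 and 5 of their regions were open on days 0 and 1. The OKSM cassette lies in the Col1a1 locus. The counts of lists depend on the assignment. The 36 matrix regions became 19 with genes within 50 kb and 14 inside a gene or within 10 kb of it.

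At Fn1 all 4 lost regions were intergenic, 99.1 to 264 kb upstream. The region at chr1:71887766-71888328, with 3 AP-1 matches, had 530, 273 and 281 bp of peak on days 0, 1 and 3. The other 3 had 200 to 241 bp on day 1 and no later peak. At Col5a2 the region 10.5 kb inside the gene, in an exon, had 361, 333, 200 and 501 bp on days 0 to 3, widest on day 3. At Col3a1 the region 41.6 kb upstream had 584 and 499 bp on days 0 and 1 and nothing later.

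Fibroblast transcription factor genes had 23 lost regions at 12 of 26 genes, and away from TSSs 22 of 80 of their regions were lost (27.5%, 18.1 to 38.6), an interval that holds the 24.8% of all genes. The 23 became 9 and 10 under the same changes of assignment. Zeb1 had 6, Zeb2 had 4, and Tbx18, Osr1 and Ebf1 2 each. Twist2, Snai1, Snai2 and Prrx1 had none, of 6, 5, 1 and 1 regions open on days 0 and 1. The genes of mesenchymal adhesion and surface proteins had 17 at 7 of 15 genes (34.0%, 21.2 to 48.8, away from TSSs), with 4 each at Cdh11, a mesenchymal cadherin gene, and Ncam1, and became 9 and 5. Contractile genes and targets of serum response factor had 16 at 9 of 21 (30.6%, 18.3 to 45.4), with 3 each at Tpm1 (tropomyosin) and Vcl (vinculin) and none of the 2 regions at Acta2, the smooth muscle actin gene. These became 11 and 8.

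Among signalling genes, TGF-beta members had 19 lost regions at 9 of 20 genes. By role these were the ligands Tgfb1 (1) and Inhba (4), the receptor Tgfbr2 (2), the signal carriers Smad2 and Smad3 (1 each), the inhibitor Smad7 (4), the latent TGF-beta binding proteins Ltbp1 (4) and Ltbp2 (1) and the target Tgfbi (1). Away from TSSs 18 of 84 of their regions were lost (21.4%, 13.2 to 31.7). The 19 became 6 within 50 kb and 8 inside a gene or within 10 kb of it. An intronic Ltbp1 region 34.9 kb downstream of the nearest TSS had 436, 200, 414 and 407 bp on days 0 to 3. Growth factor and receptor kinase genes had 16 at 9 of 18 (27.8%, 16.5 to 41.6), among them Met with 5 and Igf1, Pdgfc and Fgfr2 with 2 each. Both Igf1 regions had peaks on all of days 0 to 3, the other one with 573, 594, 616 and 487 bp.

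The lists also held genes of the factors whose motifs were searched. AP-1 genes had 2 lost regions at 11 genes, 1 at Atf3, with peaks of 237, 287 and 297 bp on days 0, 1 and 3, and 1 at Fosl2, with 205 and 236 bp on days 0 and 1, both away from TSSs, where 2 of 27 of their regions were lost (7.41%, 0.91 to 24.3). Fos, Fosb, Jun, Junb and Jund had none, of 5, 5, 8, 3 and 1 regions open on days 0 and 1. A peak lay within 1000 bp of a TSS for 8 to 9 of the 11 AP-1 genes in each MEF library and for 6 in ESCs. Runx, Tead and Cebp genes had 9 lost regions, 3 at Cebpb, 2 each at Runx1 and Runx2, and 1 each at Runx3 and Cbfb. There were none at the 4 Tead genes, Yap1 or Wwtr1. Tead1, Tead2, Tead3, Tead4, Yap1 and Wwtr1 had 8, 1, 2, 3, 3 and 2 regions open on days 0 and 1. Away from TSSs 9 of 44 regions of this list were lost (20.5%, 9.80 to 35.3), an interval that holds the 24.8% of all genes. The 9 became 4 and 5 under the other assignments.

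The lists of other cell types and states had from 0 to 7 lost regions each. Epithelial genes had 0, with only 6 of their regions open on days 0 and 1 away from TSSs, for which the exact interval reaches 45.9%. Matrix metalloproteinases and their inhibitors also had 0, of 12 (an interval up to 26.5%). Senescence and p53 genes had 2, both at Cdkn2b, a gene of a cyclin-dependent kinase inhibitor. These were 2 of 10 of their regions away from TSSs (20%, 2.52 to 55.6). Endothelial genes had 3 and neural genes 1. Blood genes also had 3, of which 2 were at Ptprc. Away from TSSs the lost shares were 3 of 12 (25%) for endothelial, 2 of 6 (33.3%) for blood, 1 of 4 (25%) for neural and 6 of 22 (27.3%) for pluripotency genes, each with an interval that holds the 24.8% of all genes. Pluripotency genes had 7, of which 3 were 175 to 395 kb upstream of Klf4, itself carried by the cassette, and 1 each was at Esrrb, Tdgf1, Nr5a2 and Tbx3. The Klf4 region 186 kb upstream had 597, 574, 232 and 208 bp on days 0 to 3.

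Of the 272 lost regions at a TSS, 8 belonged to listed genes. At Tgfb1 the peaks measured 524, 290 and 219 bp on days 0, 1 and 3, with none on day 2. At Loxl2, a lysyl oxidase gene of matrix cross-linking, they measured 556, 355 and 487 bp on the same days. At Tdgf1, a pluripotency-associated co-receptor gene, they measured 462, 200, 200 and 435 bp on days 0 to 3. At Foxf1 the values are given above. The regions at Col5a3, Itgam, Pdgfc and Tpm2 ranged from 207 to 437 bp on day 0 and from 200 to 352 bp a day later, with no peak after that. So 4 of these 8 were gone by day 2, and the other 4 all had a peak on day 3.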

How the data were processed

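ATAC-seq was measured in 7 libraries, 1 for each time-point, and they were grouped by time-point as the labels give it. Per the labels and the study's methods, the authors used Trimmomatic for trimming, Bowtie2 for alignment to mm10 and Picard for removal of duplicates. They downsampled the samples to a common depth that is not stated. Peaks were called with MACS2, library by library and with no model, using an extension of 200 bp and a shift of 100 bp whose sign is not given. The deposited files give only the position of each peak, with no score or count, so the depth behind a peak is unknown.

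Peaks were merged when they touched or overlapped by 1 bp, with the result checked against BEDTools 2.31.1. TSSs came from GENCODE M21 and sequence from GRCm38, the assembly of mm10. Of 104346 regions, 104241 had a sequence window. Python with numpy 2.4.6, scipy 1.17.1, pandas 2.3.3, pysam 0.24.0, pyranges 0.1.4 and matplotlib 3.10.9 was used, and the code was tested on simulated data. Comparisons are shares with exact 95% intervals that cover counting error only. The lost regions, the gene lists and the motifs were chosen with earlier results of these data known. Named by rule were the 20 genes with the most lost regions, up to 4 genes of each list and its genes with a lost region at a TSS, the 8 longest shared stretches, and up to 2 listed regions of each pattern. Other listed genes are named where a list is described and were chosen after their values were seen. Windows of 500 bp, classes of day 0 width and a merge without day 2 were added after the data were seen.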

Additional observations from a re-analysis of the deposited data

How the results depend on the processing

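The number of lost regions was 2331 with peaks of at least 300 bp, 1554 with the 27074 widest peaks of each library and 7434 without the day 6 library. It stayed within a factor of 1.5 of 4052 under the other 8 settings (3754 to 4658), and 4640 were found without day 9. The share with a day 2 peak was 32.0% with the widest peaks, 22.5% without day 9 and 33.7% without day 6. The share with a day 3 peak was 36.8%, 45.0% and 57.0% in the same order.

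The share within 1000 bp of a TSS was 11.0% with peaks of at least 300 bp, 5.33% with no later peak within 500 bp, 8.12% without day 9, 9.60% without day 6 and 7.89% without ESCs. It was 4.74% within 500 bp, 9.87% within 2500 bp and 12.6% with the TSSs of all genes. The share with an AP-1 match was 58.3% with the widest peaks, 47.8% without day 9 and 46.3% without day 6. It was 42.6% in 200 bp, 58.9% in 500 bp, 54.0% in the whole region, 52.1% away from TSSs and 59.4% for day 0 peaks over 400 and up to 600 bp. The other 33 values under these settings stayed within the main interval or factor. The 154 regions at listed genes became 77 within 50 kb and 78 within the gene or 10 kb of it.

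No paired analysis was possible because no time-point has a second library. Leaving out day 6 moved the count by over 1.5 times, so the count rests on that library. The peaks carry no reads, so how far a lost peak fell under the calling threshold was not measured.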
